A study of Mus musculus with 12 samples.

Results

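The interferon response genes studied here are 53 listed interferon-stimulated genes of the mouse, taken by name and measured across the 4 genotypes of the series. They were split into 5 OAS genes, 3 IFIT genes, 12 GBP and IRG genes and 33 others. Estimated reads were summed per gene over the transcripts of the GENCODE M21 annotation. All 53 were in the transcript set, and all 53 passed the filter on low counts, among 15012 genes tested in all. The list was drawn up from gene names and not from these measurements, although earlier results of the series were known when it was chosen.

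The RNA came from Flk2-negative Lin-Sca-1+Kit+ cells, the sorted bone marrow fraction that holds the blood stem cells of the mouse, and was polyA-selected and sequenced in 12 libraries. The 4 genotypes had 3 libraries each, and every library had a mouse number of its own. Mdmx-Tg/Pu.1-URE-/- mice carry both a transgene for MDMX and the loss of an upstream regulatory element of Pu.1, and Pu.1-URE-/- mice lack that element alone. Mdmx-Tg mice carry the transgene with the element in place, and Wild-type mice carry neither change. MDMX, encoded by Mdm4, is an inhibitor of p53, and Pu.1, encoded by Spi1, is a transcription factor of myeloid cells. The labels used here give neither the promoter of the transgene nor the age or strain of the animals. The design asks what extra MDMX changes in these cells with and without the Pu.1 element, and each question has a comparison of 3 against 3 libraries in each background and a comparison of 6 against 6.

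Interferons signal in 2 main ways. Type I interferons bind the receptor of Ifnar1 and Ifnar2 and activate ISGF3, a complex with Stat2 and Irf9 that binds the interferon-stimulated response element (ISRE), while interferon gamma binds the receptor of Ifngr1 and Ifngr2 and acts through the gamma-activated site (GAS). Most genes listed here respond to one or both, and many also have a basal level in unstimulated stem cells. Acute exposure to type I interferon is known to drive dormant mouse blood stem cells into division.

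Promoter sequences show which of these elements the members carry. RefSeq start sites of GRCm38.p6 were matched for 38 of the 53 members, as windows of 250 bases before to 50 bases after the start. The ISRE core, searched on both strands as GAAA, any 2 bases and GAAA again, was found for 22 of the 38 members (57.9%), against 3.99% of all 27025 genes with a window. The GAS letters, TTCNNNGAA, which read the same way on both strands, were found for 12 members (31.6%), against 9.55% of all genes. An Ets-IRF composite, searched on both strands as GGAA, any 2 bases and GAAA, which can overlap an ISRE core, was found for 7 members (18.4%), against 3.16% of all genes. The ISRE core was present for 7 of 8 matched GBP and IRG genes, 2 of 4 OAS genes, 2 of 3 IFIT genes and 11 of 23 others. Of the 12 members called between libraries without and with the Pu.1 element, described later, 10 were matched and 7 held an ISRE core. The stretches that follow are the 120 bases before the RefSeq start of 6 of them, shown because the elements named here lie in them. That of Irgm1 is not shown because GENCODE places an exon of a longer transcript there. GENCODE starts Gbp3, Ifit1 and Ifitm2 slightly before the RefSeq start, so the last bases of their stretches lie within the annotated gene. All 6 are written 5′ to 3′ in the direction of the gene, with ISRE cores and GAS letters in capitals. A core on the opposite strand reads TTTC, any 2 bases and TTTC. A match is a description of the letters and not evidence of binding.
Oas1a, chr5:120907526-120907645, minus strand: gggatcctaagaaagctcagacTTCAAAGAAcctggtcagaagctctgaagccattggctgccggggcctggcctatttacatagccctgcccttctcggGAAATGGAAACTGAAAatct
Ifit1, chr19:34640769-34640888, plus strand: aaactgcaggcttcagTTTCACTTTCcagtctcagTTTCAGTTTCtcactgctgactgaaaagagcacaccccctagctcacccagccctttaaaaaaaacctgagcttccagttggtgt
Gbp3, chr3:142559924-142560043, plus strand: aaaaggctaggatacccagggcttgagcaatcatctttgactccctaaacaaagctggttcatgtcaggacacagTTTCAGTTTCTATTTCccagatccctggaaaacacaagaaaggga
Gbp7, chr3:142530216-142530335, plus strand: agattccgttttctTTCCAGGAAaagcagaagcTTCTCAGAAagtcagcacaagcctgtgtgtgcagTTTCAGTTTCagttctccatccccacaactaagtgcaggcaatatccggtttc
Trim30a, chr7:104465194-104465313, minus strand: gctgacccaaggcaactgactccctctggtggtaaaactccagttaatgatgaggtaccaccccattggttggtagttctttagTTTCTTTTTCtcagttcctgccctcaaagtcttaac
Ifitm2, chr7:140955962-140956081, minus strand: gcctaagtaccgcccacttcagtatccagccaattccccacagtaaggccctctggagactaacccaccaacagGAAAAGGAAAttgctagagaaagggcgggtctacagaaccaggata

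Oas1a and Gbp3 each hold a pair of cores that share 4 bases, as does Irgm1. Gbp7 holds 1 core and 2 GAS matches, and Oas1a has 1 GAS match farther from its start. Ifitm2, the only one of the 7 that was higher without the element, has a single core.

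Estimated reads per library came to between 47271286 and 55067735, with 10 reads or more for 12790 to 14088 genes. Immunoglobulin genes took 31.2% of the reads in Wild-type library 1 and 0.131% to 10.6% in the other 11. That library, and the 2 with the fewest genes at 10 reads (Mdmx-Tg library 2 with 12790 and Mdmx-Tg/Pu.1-URE-/- library 3 with 12925), were left out together in an alternative added after the data were seen. Mdm4 stood at 163 to 353 CPM (counts per 1000000 reads, scaled by TMM) in Mdmx-Tg/Pu.1-URE-/- and 163 to 535 CPM in Mdmx-Tg libraries, against 56.2 to 93.9 CPM in Pu.1-URE-/- and 35.8 to 77.9 CPM in Wild-type libraries. Y-linked genes took 205 to 222 reads per 1000000 in Wild-type library 2 and Mdmx-Tg/Pu.1-URE-/- libraries 1 and 3, against 2.16 to 5.25 in the other 9, so male animals were not spread evenly over the genotypes, and the part of sex in the results was not tested. Spi1 stood at 0.0198 to 3.48 CPM in Mdmx-Tg/Pu.1-URE-/- and 8.73 to 23.9 CPM in Pu.1-URE-/- libraries, against 3.69 to 21.6 CPM in Mdmx-Tg libraries and 5.34 to 38.0 CPM in Wild-type libraries, and it overlapped between Pu.1-URE-/- and Wild-type. The p-values rest on how much the 3 libraries of a genotype vary, and nothing but the mouse numbers says that these are separate animals.

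The members differed widely in level. On the TPM scale, which is per length, Ifitm2, Ifitm1 and Ifitm3, membrane proteins that block virus entry, averaged 2024, 1608 and 641 TPM over the 12 libraries and made up 69.9% of the summed TPM of all members. With the immunoproteasome subunits Psmb8 (629 TPM) and Psmb9 (158 TPM) the share was 82.8%. Of all members, 7 averaged above 100 TPM, and 5 averaged below 1 TPM: Oas2, Ifit3, Mx1, Rsad2 and Gbp5. Within the OAS genes Oas1a (15.4 TPM) and Oasl2 (11.9 TPM) were highest, among the IFIT genes Ifit2 (7.0 TPM) and Ifit1 (3.43 TPM), and among the GBP and IRG genes Ifi47 (81.3 TPM) and Irgm1 (54.4 TPM). Classical markers of acute induction were low, with Isg15 at 9.25 TPM, Usp18 at 11.7 TPM and Mx1 at 0.334 TPM. Some of these levels depend on how reads were divided between similar genes, since 68.8% of the 31-base words of Oas1a, 61.8% of those of Ifit3, 74.1% of those of Gbp6 and 55.5% of those of Ifitm2 occur in transcripts of other genes.

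Most members had lower fitted levels without the Pu.1 element, and those called were mainly lower. In the comparison of the 6 libraries without the element against the 6 with it, 10 members fell and 2 rose (edgeR quasi-likelihood test, adjusted p below 0.05 over all 15012 genes). Of all genes 11.9% were called in either direction. Across all genes tested 3.81% were called lower and 8.08% higher in that comparison, against 18.9% and 3.77% of the members. Fitted log2 changes were below 0 for 42 of 53 members with a median of -0.61, against 50% of all genes and a median of 0. At an unadjusted p below 0.05 there were 3 members higher and 25 lower, against 26.9% of all genes in either direction. The groups did not overlap, with every library without the element below every library with it, for 6 members, against 1.88% of all genes. DESeq2 called 24 members, of which 22 were lower, against 19.9% of all genes in either direction.

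**Figure D1:**
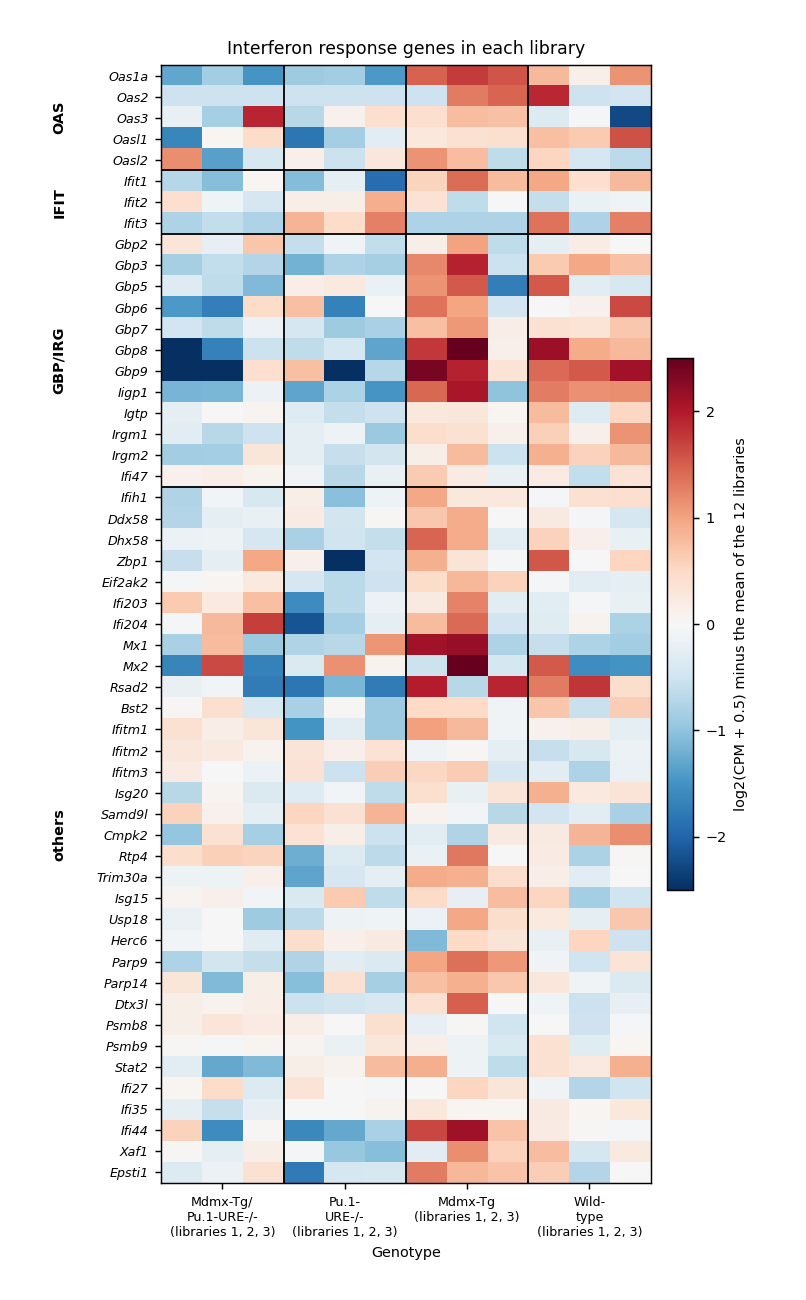
Heat map of the 53 members (rows, grouped as OAS, IFIT, GBP/IRG and others) in the 12 libraries (columns, 3 per genotype), coloured by log2(CPM + 0.5) minus the mean of the 12 libraries, with colours saturated at ±2.5. Blue prevails for the GBP/IRG genes in the 6 libraries without the Pu.1 element, and Mdmx-Tg library 3 is less red than the other 2 Mdmx-Tg libraries.

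Oas1a encodes an oligoadenylate synthetase, which senses double-stranded RNA and makes the messenger that activates RNase L. The gene lies at chr5:120896256-120907521 on the minus strand of GRCm38. It had 7.48, 10.2 and 6.54 CPM in Mdmx-Tg/Pu.1-URE-/- libraries and 10.01, 10.2 and 6.73 CPM in Pu.1-URE-/- libraries, against 53.4, 64.8 and 57.3 CPM in Mdmx-Tg libraries and 33.7, 20.7 and 41.8 CPM in Wild-type libraries. All 6 libraries without the element were below all 6 with it. The change was -2.35 ± 0.23 on the log2 scale (SE), a 5.09-fold fall (edgeR adjusted p = 0.000111). It kept its call whichever library was left out. Because its sequence is shared with Oas1g, Oas1b and Oas1h, the reads of the 4 genes were also summed, and the sum fell by 2.10 (edgeR adjusted p = 0.000277).

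The other OAS genes did not pass the threshold. Oasl2, a further synthetase of the family, had 45.0, 7.38 and 14.9 CPM in Mdmx-Tg/Pu.1-URE-/- and 21.7, 13.4 and 24.3 CPM in Pu.1-URE-/- libraries, against 44.0, 34.1 and 12.5 CPM in Mdmx-Tg libraries and 28.9, 14.6 and 12.4 CPM in Wild-type libraries. Its groups overlapped throughout. Oas2, picked after its values were seen, had no read in any of the 6 libraries without the element. It had 0, 65 and 82 reads in Mdmx-Tg and 96, 0 and 1 reads in Wild-type libraries, so it was at least 78.0-fold lower when the 6 libraries together are set at a floor of 3 reads. It was not called (edgeR adjusted p = 0.0726), and 3 of the 6 libraries with the element held nearly all of its reads. Oas3 and Oasl1 were not called, with fitted log2 changes of 0.43 and -1.27.

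The IFIT genes did not move together. Ifit1, which binds viral RNA that lacks the methylation of host caps, had 4.22, 3.22 and 7.45 CPM in Mdmx-Tg/Pu.1-URE-/- and 3.17, 6.16 and 1.58 CPM in Pu.1-URE-/- libraries, against 10.8, 19.7 and 12.8 CPM in Mdmx-Tg libraries and 14.6, 9.82 and 13.0 CPM in Wild-type libraries. The groups did not overlap, and the gene fell by 1.66 ± 0.40 (log2, SE; edgeR adjusted p = 0.0230). That call ended without Mdmx-Tg library 2 (adjusted p = 0.0501), Pu.1-URE-/- library 1 (0.0628) or Mdmx-Tg/Pu.1-URE-/- library 1 (0.0531). Ifit2, another member of the family, had 31.5, 21.7 and 17.5 CPM in Mdmx-Tg/Pu.1-URE-/- and 26.2, 26.1 and 44.4 CPM in Pu.1-URE-/- libraries, against 30.3, 14.99 and 23.6 CPM in Mdmx-Tg libraries and 15.4, 21.0 and 21.9 CPM in Wild-type libraries. It was not called (log2 change 0.38), and Ifit3 stayed at or below 100 reads in every library.

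Guanylate-binding proteins and immunity-related GTPases, which are induced above all by interferon gamma and attack the vacuoles of intracellular pathogens, all had fitted changes below 0. Of these 12 genes 4 fell (33.3%) and none rose, against 3.81% and 8.08% of all genes. Their median log2 change was -1.13, and the mean of each was highest in Mdmx-Tg (9 genes) or Wild-type (3 genes). Lower and non-overlapping libraries were seen for 4 of the 12, against 1.88% of all genes. DESeq2 called 7, against 19.9% of all genes in either direction.

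Gbp3, at chr3:142560026-142573209, had 13.5, 15.6 and 14.3 CPM in Mdmx-Tg/Pu.1-URE-/- and 10.5, 14.1 and 13.5 CPM in Pu.1-URE-/- libraries, against 56.4, 93.7 and 16.5 CPM in Mdmx-Tg libraries and 38.7, 47.7 and 40.3 CPM in Wild-type libraries. It fell by 1.84 ± 0.33 (log2, SE; edgeR adjusted p = 0.00525), a 3.58-fold change. Mdmx-Tg library 3 lay close above the libraries without the element. Its neighbour Gbp7, at chr3:142530342-142550149, had 80.0, 72.1 and 101 CPM in Mdmx-Tg/Pu.1-URE-/- and 83.6, 60.1 and 63.6 CPM in Pu.1-URE-/- libraries, against 188, 237 and 125 CPM in Mdmx-Tg libraries and 145, 143 and 180.1 CPM in Wild-type libraries. It fell 2.21-fold (log2 change -1.15 ± 0.18 SE, edgeR adjusted p = 0.00218), with no overlap between the groups.

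Iigp1, an effector GTPase of the IRG family, had 8.80, 8.98 and 18.4 CPM in Mdmx-Tg/Pu.1-URE-/- and 7.87, 11.7 and 7.04 CPM in Pu.1-URE-/- libraries, against 56.0, 85.8 and 9.92 CPM in Mdmx-Tg libraries and 50.4, 45.5 and 46.2 CPM in Wild-type libraries. It fell 4.73-fold (log2 change -2.24 ± 0.43 SE, edgeR adjusted p = 0.00748), and only Mdmx-Tg library 3 overlapped the libraries without the element. Irgm1, a regulator of the effector GTPases that mouse blood stem cells need for normal function, lies at chr11:48861968-48871683. It had 81.8, 61.5 and 69.7 CPM in Mdmx-Tg/Pu.1-URE-/- and 85.1, 91.96 and 52.2 CPM in Pu.1-URE-/- libraries, against 136, 131 and 109 CPM in Mdmx-Tg libraries and 151, 109 and 219 CPM in Wild-type libraries. The groups did not overlap (log2 change -0.94 ± 0.20 SE, edgeR adjusted p = 0.0120).

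Ifi47, the member of this group with the highest level, was not called. It had 129, 135 and 128 CPM in Mdmx-Tg/Pu.1-URE-/- and 113, 74.7 and 105 CPM in Pu.1-URE-/- libraries, against 189, 138 and 105 CPM in Mdmx-Tg libraries and 138, 78.3 and 155 CPM in Wild-type libraries. Gbp3, Gbp7, Iigp1 and Irgm1 kept their calls whichever library was left out, at edgeR adjusted p up to 0.0312. Gbp8 and Gbp9 overlap on the same strand, as do Igtp and Irgm2, so the division of reads within these pairs is uncertain. Members with a larger share of their sequence in other genes were also summed with the genes that share most of it. The sums of Gbp6, Gbp8, Gbp9 and Igtp were then called lower. That of Igtp holds Irgm1, that of Gbp6 holds Gbp4 and that of Gbp8 holds Gbp11, each called lower by itself. That of Gbp9 holds Gbp6 and Gbp8. These are thus changes of the sums and not further members that fell.

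**Figure D2:**
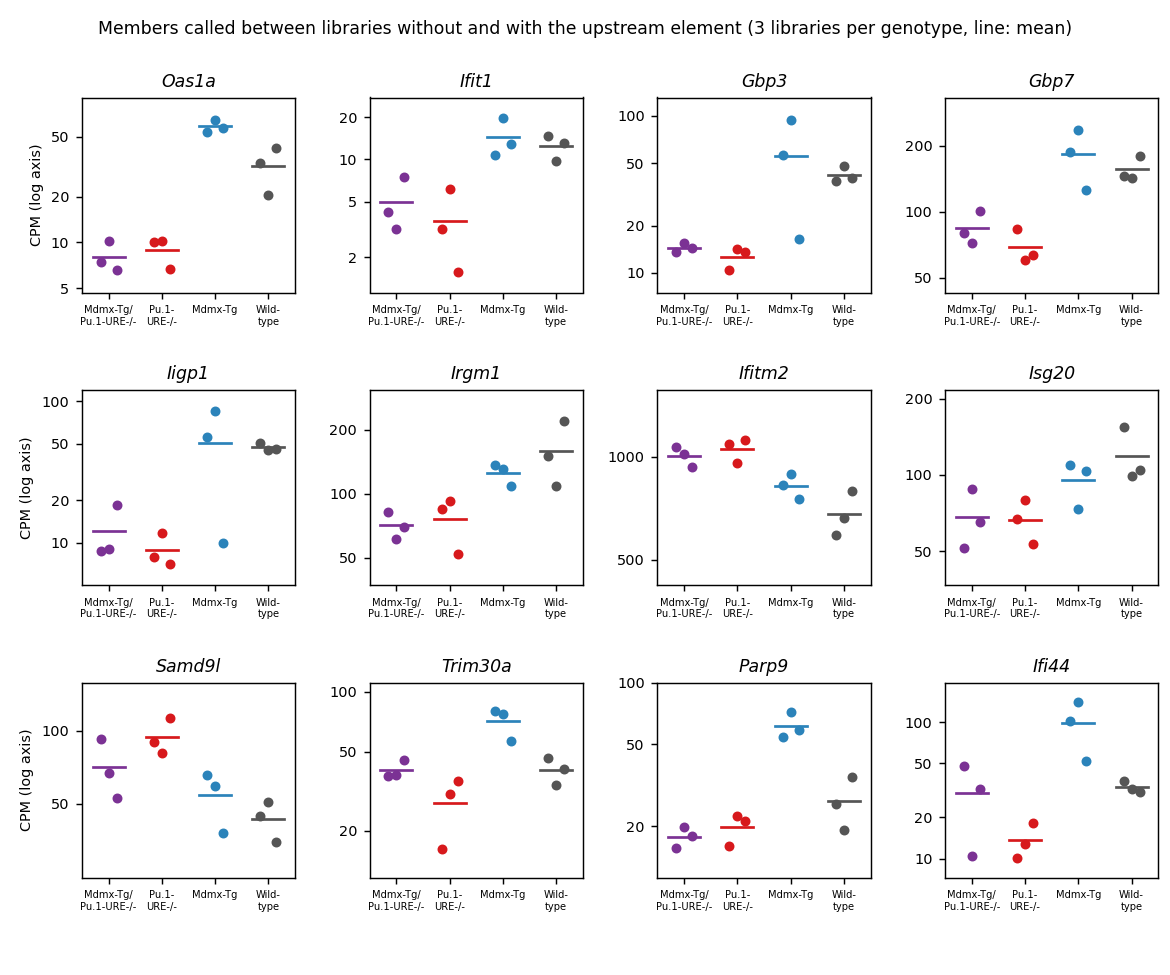
CPM (log axis) of the 12 members called between libraries without and with the Pu.1 element, with a point for each library and a line for the mean of each genotype (n = 3). Oas1a, Ifit1, Gbp3, Gbp7 and Irgm1 are lower in all 6 libraries without the element, Ifitm2 is higher in all 6, and Mdmx-Tg library 3 is low for Gbp3 and Iigp1.

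Among the 33 other members 4 fell (12.1%) and 2 rose (6.06%), against 3.81% and 8.08% of all genes. Their median log2 change was -0.48. None of the 7 sensors of foreign RNA and DNA was called by edgeR, although all 7 had fitted changes below 0 (median -0.48). Of these 7 sensors 4 had an unadjusted p below 0.05 and DESeq2 called 3, against 26.9% and 19.9% of all genes in either direction. Eif2ak2, the kinase PKR that halts translation on double-stranded RNA, changed by -0.45 ± 0.14 (log2, SE; edgeR adjusted p = 0.0616).

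Of 12 antiviral effectors 2 fell and 2 rose (16.7% each way), against 3.81% and 8.08% of all genes. Isg20, an exonuclease that degrades viral RNA, had 51.4, 87.7 and 64.9 CPM in Mdmx-Tg/Pu.1-URE-/- and 66.7, 79.4 and 53.4 CPM in Pu.1-URE-/- libraries, against 109.5, 73.6 and 104 CPM in Mdmx-Tg libraries and 155, 98.7 and 104 CPM in Wild-type libraries. Its fall (log2 change -0.67 ± 0.19 SE, edgeR adjusted p = 0.0445) overlapped between groups and ended when any of 9 libraries was left out, at adjusted p up to 0.0990. Trim30a, of a family of ubiquitin ligases with antiviral members, had 37.8, 38.1 and 45.2 CPM in Mdmx-Tg/Pu.1-URE-/- and 16.2, 30.7 and 35.4 CPM in Pu.1-URE-/- libraries, against 79.7, 77.1 and 56.8 CPM in Mdmx-Tg libraries and 46.6, 33.8 and 41.0 CPM in Wild-type libraries. The difference was carried mainly by the Mdmx-Tg libraries, and the call (log2 change -0.69 ± 0.20 SE, edgeR adjusted p = 0.0475) ended when any of 9 libraries was left out, at up to 0.0873.

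Ifitm2 rose. It had 1069, 1023 and 935 CPM in Mdmx-Tg/Pu.1-URE-/- and 1090.5, 958 and 1120.4 CPM in Pu.1-URE-/- libraries, against 828, 892 and 754 CPM in Mdmx-Tg libraries and 592, 661 and 794 CPM in Wild-type libraries. All 6 libraries without the element were above all 6 with it, which held for 4.88% of all genes. The change was 1.38-fold (log2 change 0.46 ± 0.11 SE, edgeR adjusted p = 0.0226) and lost its call without any of 7 libraries, at up to 0.0963. The neighbouring family genes Ifitm1 and Ifitm3 were not called (log2 changes -0.60 and 0.16).

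Samd9l, which restrains growth of blood cells and whose human counterpart is mutated in inherited marrow failure, also rose. It had 92.7, 67.0 and 52.8 CPM in Mdmx-Tg/Pu.1-URE-/- and 89.9, 81.3 and 113 CPM in Pu.1-URE-/- libraries, against 65.9, 59.1 and 37.9 CPM in Mdmx-Tg libraries and 44.5, 50.9 and 34.9 CPM in Wild-type libraries. The rise was 1.69-fold (log2 change 0.75 ± 0.20 SE, edgeR adjusted p = 0.0307), the groups overlapped, and the call ended without any of 6 libraries, at up to 0.111.

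Parp9 acts with the ubiquitin ligase Dtx3l in ADP-ribosylation, and its gene overlaps that of Dtx3l on the opposite strand. Parp9 was the clearest fall of the ISG15 and ADP-ribosylation genes. Of these 6 genes 1 was called lower (16.7%) and none higher, against 3.81% and 8.08% of all genes. Parp9 was the 1 called. It had 15.7, 19.7 and 17.9 CPM in Mdmx-Tg/Pu.1-URE-/- and 15.9, 22.5 and 21.2 CPM in Pu.1-URE-/- libraries, against 54.4, 71.5 and 58.7 CPM in Mdmx-Tg libraries and 25.5, 19.2 and 34.8 CPM in Wild-type libraries. The Mdmx-Tg libraries stood apart, and Wild-type overlapped the libraries without the element (log2 change -1.10 ± 0.19 SE, edgeR adjusted p = 0.00358). Isg15, the ubiquitin-like modifier, had 5.09, 5.36 and 4.62 CPM in Mdmx-Tg/Pu.1-URE-/- and 3.60, 7.89 and 2.92 CPM in Pu.1-URE-/- libraries, against 6.97, 4.14 and 8.57 CPM in Mdmx-Tg libraries and 7.23, 2.45 and 3.27 CPM in Wild-type libraries. Its groups overlapped, and it was not called (log2 change -0.12). Of its 31-base words 12.8% occur in other genes, the most in AC151275.1, Olfr1307 and Ankrd44. Its sum with all reads of those genes was called higher (log2 change 1.6), which is a change of the sum and not of Isg15 alone. Usp18, which removes Isg15 and damps the type I receptor, had 14.5, 16.1 and 8.54 CPM in Mdmx-Tg/Pu.1-URE-/- and 10.2, 14.8 and 15.2 CPM in Pu.1-URE-/- libraries, against 14.6, 32.2 and 22.1 CPM in Mdmx-Tg libraries and 19.4, 13.9 and 26.2 CPM in Wild-type libraries (edgeR adjusted p = 0.136).

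Neither immunoproteasome gene was called. Ifi44, a cytoplasmic protein of the type I response, had 47.7, 10.4 and 32.6 CPM in Mdmx-Tg/Pu.1-URE-/- and 10.2, 12.8 and 18.1 CPM in Pu.1-URE-/- libraries, against 102, 139.6 and 52.3 CPM in Mdmx-Tg libraries and 36.9, 32.4 and 30.7 CPM in Wild-type libraries. It fell 2.81-fold (log2 change -1.49 ± 0.35 SE, edgeR adjusted p = 0.0205), a call that ended without Pu.1-URE-/- library 1 (0.0607). The groups overlapped, with means of 30.3 CPM in Mdmx-Tg/Pu.1-URE-/- and 33.3 CPM in Wild-type libraries. The Mdmx-Tg libraries stood above all others. Stat2, the type I signal transducer, had 12.2, 5.71 and 6.52 CPM in Mdmx-Tg/Pu.1-URE-/- and 16.2, 15.7 and 25.6 CPM in Pu.1-URE-/- libraries, against 28.0, 13.4 and 9.22 CPM in Mdmx-Tg libraries and 19.2, 17.4 and 27.7 CPM in Wild-type libraries. It was not called by edgeR in any comparison. All Mdmx-Tg/Pu.1-URE-/- libraries were nevertheless below all Pu.1-URE-/- and all Wild-type libraries, which held for 8.95% and 10.8% of all genes.

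The same question was put in each background. Without the transgene, 4 members were called in Pu.1-URE-/- against Wild-type: Oas1a (3.58-fold) and Gbp7 (2.26-fold) lower, and Samd9l (2.18-fold) and Ifitm2 (1.55-fold) higher, at edgeR adjusted p between 0.00711 and 0.0462. Of all genes 4.71% were called in that comparison, 3.84% higher and 0.866% lower. The count was 2 without any of Wild-type library 1 or 2, Mdmx-Tg library 1, Pu.1-URE-/- library 1 or 2 and Mdmx-Tg/Pu.1-URE-/- library 1 or 2. It was 1 without Wild-type library 3 or Pu.1-URE-/- library 3, and the shares of all genes called in these fits are not given here. With the transgene, 3 members were called lower in Mdmx-Tg/Pu.1-URE-/- against Mdmx-Tg, where 2.32% of all genes were called in either direction, 1.67% higher and 0.646% lower. These were Oas1a (7.25-fold, edgeR adjusted p = 0.00138), Parp9 (3.46-fold, 0.00660) and Gbp7 (2.17-fold, 0.0438), and the count was 5 without Mdmx-Tg library 3, with 2.21% of all genes called. The call of Gbp7 there was lost when any of 9 libraries was left out, at adjusted p up to 0.139.

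Groups did not overlap for 5 members higher and 16 lower in Pu.1-URE-/- against Wild-type, where 15.9% and 13.8% of all genes did so. In Mdmx-Tg/Pu.1-URE-/- against Mdmx-Tg these were 2 higher and 15 lower, against 11.9% and 7.25% of all genes. Unadjusted p was below 0.05 for 2 members higher and 15 lower in the first and 1 higher and 17 lower in the second, against 19.8% and 16.9% of all genes in either direction. DESeq2 called 13 members in each, against 12.3% and 8.63% of all genes. Without the 3 libraries named earlier the counts were 2 and 1, with 3.49% and 0.725% of all genes called.

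These comparisons share no library, so their directions can be set side by side. Fitted changes were below 0 in both for 36 of 53 members (67.9%), against 33.7% of all genes, and above 0 in both for 6 members (11.3%), against 34% of all genes. No member differed between the backgrounds beyond the threshold in edgeR: the interaction gave 0 calls among the members and among all genes in edgeR (0%), with 3 members and 5.8% of all genes at an unadjusted p below 0.05. DESeq2 called Parp9 alone, against 1.29% of all genes. Its fall was 1.38 ± 0.37 log2 units larger with the transgene (edgeR adjusted p = 0.767; DESeq2 adjusted p = 0.0332). Oas1a had the next smallest p, with an interaction of -1.02 ± 0.43 (edgeR adjusted p = 0.843).

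**Figure D3:**
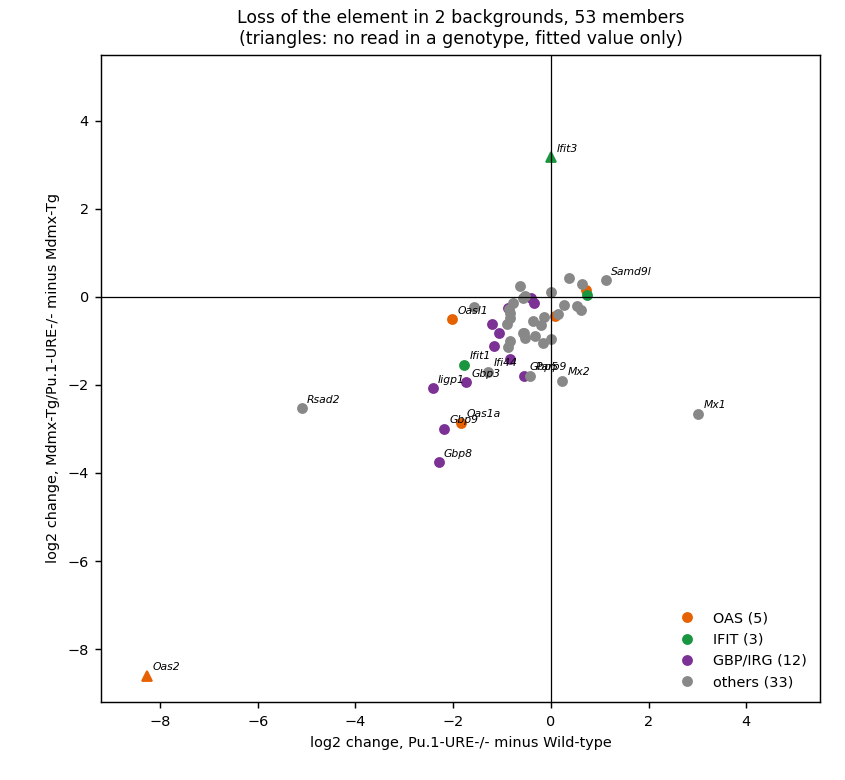
Log2 changes of the 53 members for loss of the element, without the transgene (x axis, Pu.1-URE-/- minus Wild-type) and with it (y axis, Mdmx-Tg/Pu.1-URE-/- minus Mdmx-Tg). Triangles mark Oas2 and Ifit3, which had no read in a genotype, so that their position is a fitted value only. The lower left quadrant holds 36 members and the upper right 6.

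In the comparison that changes both factors, Mdmx-Tg/Pu.1-URE-/- against Wild-type, Oas1a was 3.98-fold lower (edgeR adjusted p = 0.00786) and Irgm1 2.25-fold lower (0.0498), where 3.34% of all genes were called, 2.47% higher and 0.873% lower. The median of the members was -0.31, DESeq2 called 10 (10.2% of all genes), and an unadjusted p below 0.05 was reached by 2 higher and 15 lower (18.5% of all genes). Groups did not overlap for 9 higher and 15 lower, against 15.2% and 10.8% of all genes. The edgeR count was 0 without the 3 libraries named earlier (0.96% of all genes called), 5 without Mdmx-Tg library 3 (3.55%) and 1 without any of 9 libraries, which were all except Mdmx-Tg library 3 and Pu.1-URE-/- libraries 2 and 3. For those 9 fits the share of all genes called is not given here.

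The transgene moved no member past the threshold. In Mdmx-Tg against Wild-type and in Mdmx-Tg/Pu.1-URE-/- against Pu.1-URE-/-, edgeR called 0 members and 0% of all genes, as it did in the comparison of the 6 transgenic with the 6 other libraries. Unadjusted p below 0.05 was reached by 8 members higher and 2 lower in the first, 6 higher and 3 lower in the second, and 10 higher and 2 lower in the comparison of 6 against 6, against 10.5%, 10.7% and 16.3% of all genes. DESeq2 called 2, 1 and 9 members in these comparisons, where it called 2.2%, 2.19% and 6.82% of all genes. Groups did not overlap for 10 members higher and 1 lower in the first, against 6.63% and 7.05% of all genes, and for 11 higher and 5 lower in the second, against 9.93% and 8.95%. Between the 6 and 6 libraries they did not overlap for 2 higher and none lower, against 0.633% and 0.5%. The median log2 changes were 0.32, 0.06 and 0.26, against 0, 0.01 and 0 for all genes. Fitted changes were above 0 in both backgrounds for 22 of 53 members (41.5%), against 30.7% of all genes. Mdm4, the gene of the transgene, was itself not called by edgeR in these comparisons. It stood at 163 to 535 CPM in the 6 transgenic libraries, against 35.8 to 93.9 CPM in the 6 others. A count of 0 thus does not show that the transgene left the members unchanged.

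Eif2ak2 had the smallest p for the transgene. It had 29.7, 31.3 and 35.9 CPM in Mdmx-Tg/Pu.1-URE-/- and 42.0, 53.8 and 45.0 CPM in Mdmx-Tg libraries, against 22.6, 18.8 and 21.1 CPM in Pu.1-URE-/- and 29.6, 25.2 and 25.3 CPM in Wild-type libraries. Each transgenic group lay above its own control, and all 6 transgenic libraries were above all 6 others. The change was 0.72 ± 0.14 (log2, SE; edgeR adjusted p = 0.139; DESeq2 adjusted p = 0.000233). Ifitm1 had 822, 711 and 780.1 CPM in Mdmx-Tg/Pu.1-URE-/- and 1289, 1104 and 593 CPM in Mdmx-Tg libraries, against 225, 523 and 333 CPM in Pu.1-URE-/- and 681, 702 and 539 CPM in Wild-type libraries. It did not overlap between Mdmx-Tg/Pu.1-URE-/- and Pu.1-URE-/- (log2 change 1.10 ± 0.33 SE, edgeR adjusted p = 0.406; DESeq2 adjusted p = 0.0425).

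For Parp9 the change in Mdmx-Tg against Wild-type was 1.21 ± 0.26 (log2, SE; edgeR adjusted p = 0.348; DESeq2 adjusted p = 0.00189), and the libraries listed for it earlier did not overlap. Ifit3, of the IFIT family, had no read in the 3 Mdmx-Tg libraries and 0, 3 and 0 reads in Mdmx-Tg/Pu.1-URE-/- libraries, against 50, 38 and 78 reads in Pu.1-URE-/- and 74, 0 and 100 reads in Wild-type libraries. It was at least 55.9-fold lower in Mdmx-Tg when its 3 libraries together are set at the floor of 3 reads, although 1 Wild-type library was also at 0 (edgeR adjusted p = 0.369). Of the 31-base words of Ifit3, 61.8% also occur in Ifit3b, so this fold depends on how reads were divided between the genes. Mx1, a dynamin-like antiviral GTPase, had 0.0402, 1.14 and 0 CPM in Mdmx-Tg/Pu.1-URE-/- and 3.58, 3.77 and 0.0538 CPM in Mdmx-Tg libraries, against 0.0613, 0.0880 and 1.54 CPM in Pu.1-URE-/- and 0.136, 0.0544 and 0.0153 CPM in Wild-type libraries. Values above 1 CPM occurred in 4 libraries of 3 genotypes.

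Mdmx-Tg library 3 bears on these results. Among the 3 Mdmx-Tg libraries it was the lowest for all 12 GBP and IRG genes and for 32 of the 52 members with a read in the group, against 30.8% of all genes. Mdmx-Tg library 2 was the highest of the 3 for 29 of 52. Without Mdmx-Tg library 3 the transgene comparison of 5 against 6 libraries called 4 members higher (Eif2ak2, Ifitm1, Ifi44 and Dtx3l) and 2.86% of 15680 genes. With each library left out in turn that count ran from 0 to 4. The library is singled out here by the members' own low values. Leaving it out raises the Mdmx-Tg mean of members low in it by construction, so these calls are no separate support. The same holds for the count without it in Mdmx-Tg/Pu.1-URE-/- against Mdmx-Tg, given earlier. Among Wild-type libraries, library 1 was the highest for 28 of 53 members and library 2 the lowest for 30. The genotype mean was highest in Mdmx-Tg for 33 of the 53 members and lowest in Pu.1-URE-/- for 25.

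**Figure D4:**
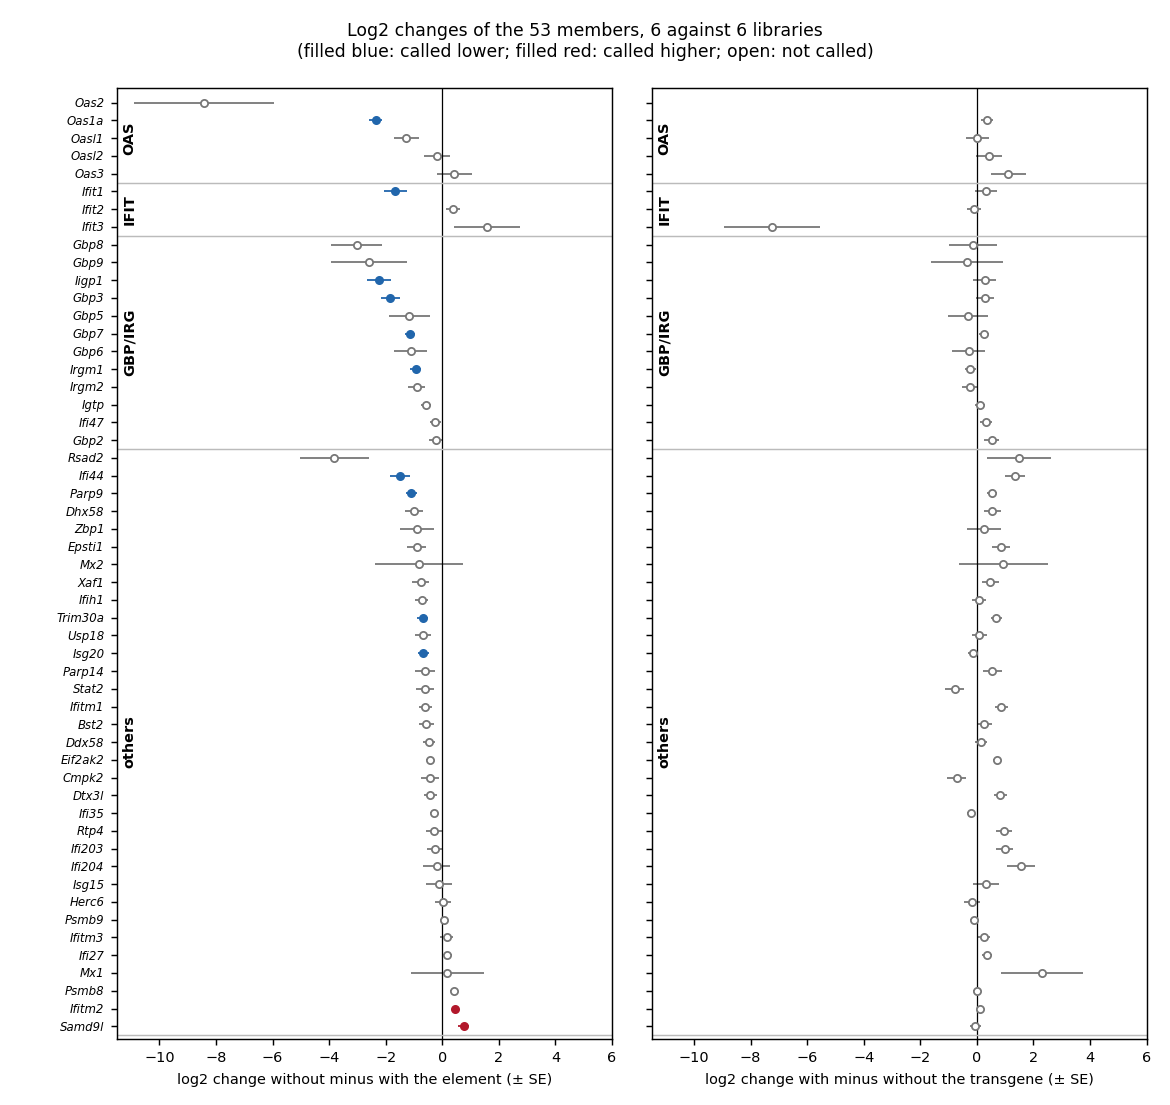
Log2 changes (points) with standard errors (lines) of the 53 members in the comparisons of 6 against 6 libraries, for loss of the element (left) and the transgene (right). Filled points are called by edgeR at an adjusted p below 0.05: 10 lower and 2 higher on the left, none on the right. Oas2 is left out on the right, where its standard error is too large to draw.

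Of 21 interferon genes, 18 had no read in any library, which at a floor of 3 reads allows up to 0.0459 to 0.0677 CPM per library, and none was tested. Ifnb1 had 50 reads in Wild-type library 3, Ifng 14 reads in Wild-type library 2 and Ifnz 11 reads in Wild-type library 1, and each had 0 elsewhere. Messages of the ligands were thus not detectable in most of these libraries, which does not bear on interferon made by other cells.

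Of 16 receptor and JAK-STAT genes 1 rose and 1 fell on loss of the element, 6.25% each way, near the 8.08% and 3.81% of all genes. Ifngr1, the ligand-binding chain for interferon gamma, had 558, 355 and 389.5 CPM in Mdmx-Tg/Pu.1-URE-/- and 767, 668 and 639 CPM in Pu.1-URE-/- libraries, against 161, 159.9 and 325 CPM in Mdmx-Tg libraries and 247, 279 and 344 CPM in Wild-type libraries. It rose 2.19-fold without overlap (edgeR adjusted p = 0.00535). Jak2, a kinase of that receptor, fell 1.56-fold (0.0128), with 39.7, 41.5 and 43.8 CPM in Mdmx-Tg/Pu.1-URE-/- and 38.7, 45.9 and 30.2 CPM in Pu.1-URE-/- libraries, against 91.8, 88.7 and 76.4 CPM in Mdmx-Tg libraries and 51.4, 41.0 and 44.1 CPM in Wild-type libraries. The Mdmx-Tg libraries stood above the rest for this gene.

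Of 9 interferon regulatory factors 1 fell (11.1%) and none rose, against 3.81% and 8.08% of all genes. Irf9, the DNA-binding part of ISGF3, had 58.4, 55.2 and 70.1 CPM in Mdmx-Tg/Pu.1-URE-/- and 46.9, 55.1 and 55.9 CPM in Pu.1-URE-/- libraries, against 141, 130.3 and 67.3 CPM in Mdmx-Tg libraries and 133, 72.2 and 68.6 CPM in Wild-type libraries. It fell 1.79-fold (edgeR adjusted p = 0.0341), with Mdmx-Tg library 3 and Wild-type library 3 within the range of the libraries without the element. Irf5 had the next smallest p of this list and was not called (log2 change -2.83, adjusted p = 0.0655). Of 14 sensing adaptors tested 1 rose (7.14%) and 2 fell (14.3%), against 8.08% and 3.81% of all genes. Tlr7, an endosomal RNA receptor, was higher (edgeR adjusted p = 0.00829). Samhd1 and Trex1, enzymes that remove cytosolic nucleic acids or their precursors, fell 2.12-fold (0.0128) and 1.68-fold (0.0445).

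Among 46 further interferon-stimulated genes tested, 9 fell and 1 rose, with a median log2 change of -0.46, against 3.81% of all genes called lower and 8.08% higher. Ube2l6, the conjugating enzyme for Isg15, had 76.7, 78.4 and 96.3 CPM in Mdmx-Tg/Pu.1-URE-/- and 64.5, 106 and 72.5 CPM in Pu.1-URE-/- libraries, against 267, 262 and 149 CPM in Mdmx-Tg libraries and 206, 171 and 225 CPM in Wild-type libraries. It fell 2.59-fold without overlap (edgeR adjusted p = 0.00101). Sp100, of nuclear bodies, rose 3.89-fold (0.000235), with 241, 164 and 182 CPM in Mdmx-Tg/Pu.1-URE-/- and 363, 168 and 339 CPM in Pu.1-URE-/- libraries, against 51.7, 84.5 and 64.1 CPM in Mdmx-Tg libraries and 59.1, 51.6 and 57.6 CPM in Wild-type libraries. The other falls were Oas1g, Gbp4, Gbp11, Tgtp2, Gm4951, Trim30d, Phf11d and Slfn5, of which Tgtp2 fell 2.55-fold (0.00852) and Slfn5 2.10-fold (0.0209). Of these, Oas1g shares sequence with the member Oas1a, Gbp4 with Gbp6, Gbp11 with Gbp3 and Gbp8, Gm4951 with Iigp1 and Trim30d with Trim30a. The falls of these genes are thus not fully separate from those of the members. Ly6a, which encodes the Sca-1 antigen of the sort and responds to interferon, was not called (log2 change -0.09).

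Of 16 genes of class I antigen presentation 3 rose and 1 fell, or 18.75% and 6.25%, against 8.08% and 3.81% of all genes. H2-D1 (1.6-fold), the transporter gene Tap2 (1.71-fold) and the trimming peptidase gene Erap1 (1.65-fold) rose, and H2-T23 fell 1.38-fold, at edgeR adjusted p from 0.0251 to 0.0477. B2m, the shared light chain, was not called (log2 change -0.06 ± 0.16 SE, adjusted p = 0.858). In the transgene comparison of 6 against 6 libraries edgeR called 0 genes of these lists and 0% of all genes. Of the 46 further interferon-stimulated genes, 5 higher and 4 lower had an unadjusted p below 0.05 there, against 16.3% of all genes in either direction. DESeq2 called 5 of the 46, against 6.82% of all genes in either direction.

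**Figure D5:**
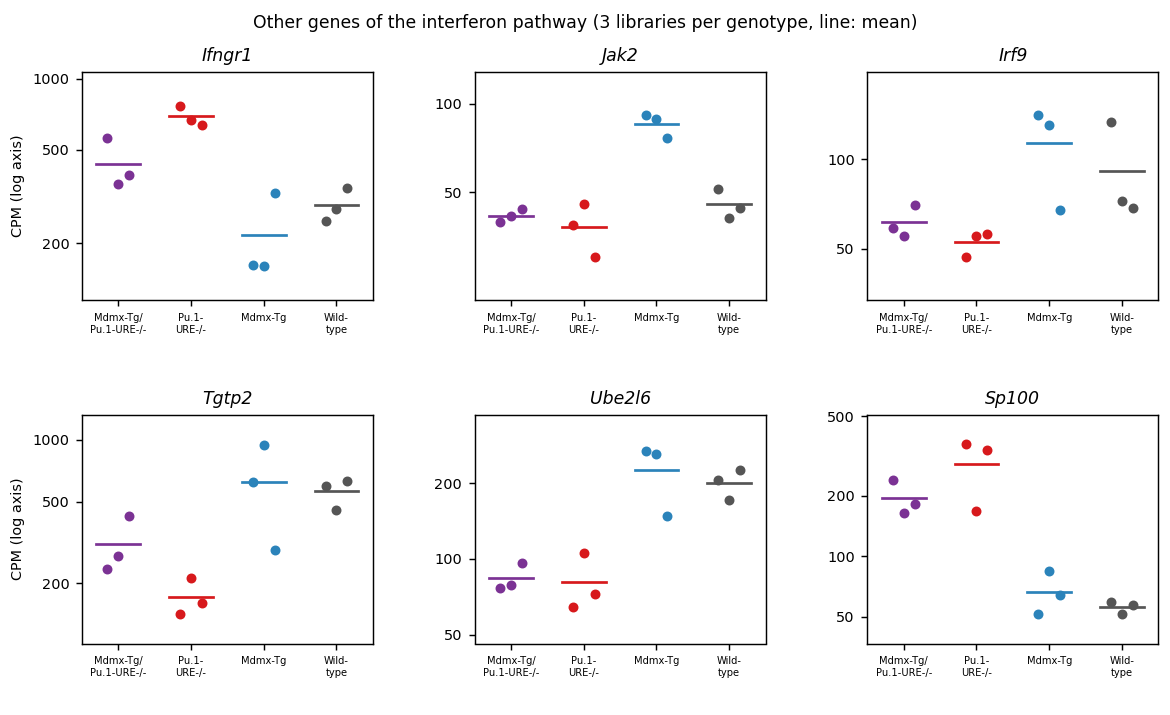
CPM (log axis) of 6 further genes of the pathway, with a point for each library and a line for the mean of each genotype (n = 3). Ifngr1 and Sp100 are higher and Ube2l6 lower in all 6 libraries without the element, while Jak2 is highest in the Mdmx-Tg libraries.

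Marker genes of other cell types were read in the same comparison, where 8.08% of all genes were called higher and 3.81% lower. All 9 neutrophil genes were higher without the element, with a summed level of 31457 to 137399 CPM, against 633 to 2115 CPM with it. Plasma and B cell genes summed to 666 to 3597 CPM without the element, against 531 to 25882 CPM with it, and 1 of 8 tested (Cd79b) was lower. Monocyte and macrophage genes summed to 381.3 to 841 CPM, against 73.4 to 519 CPM, and without the element the sum was mostly Ly6c2, the 1 of 6 called higher, at 313 to 809 CPM, against 32.7 to 472 CPM. The 2 called lower were Cd68, at up to 7.91 CPM, against up to 36.2 CPM, and Csf1r, at no more than 0.142 CPM, against up to 8.74 CPM, and Adgre1 had no read without the element. Of the 6 tested 4 had fitted changes above 0 and 2 below. Ccr2, not called, was among the 4, at 14.8 to 63.5 CPM, against 4.90 to 28.5 CPM. T and NK cell genes summed to 1546 to 3949 CPM, against 101 to 313 CPM, and Nkg7, the 1 of 6 called higher, made up nearly all of the sum without the element, at 1536 to 3942 CPM, against 92.4 to 311 CPM. Ncr1, the 1 called lower, and Klrd1 had no read without the element, Cd3e reached no more than 0.450 CPM in any library, and Trac had no read at all. Of the 6 tested 3 had fitted changes above 0 and 3 below. Klrb1c, not called, was among those above, at 2.25 to 9.23 CPM, against 0.0392 to 5.89 CPM. Plasmacytoid dendritic cell genes, from a cell type that makes type I interferon, summed to 136 to 248 CPM without the element, against 172 to 529 CPM with it (1 of 5 higher, Ccr9), with Klk1 at 0 reads and Siglech at no more than 0.0793 CPM in any library. In this sum Tcf4 stood at 97.1 to 162 CPM, against 93.1 to 140 CPM, and Bst2, itself a member, at 21.7 to 54.6 CPM, against 27.9 to 67.0 CPM. Ly6d stood at 0 to 46.0 CPM, against 6.33 to 328 CPM, highest in Wild-type library 1, which was rich in immunoglobulin reads. Erythroid genes summed to 5.0 to 310 CPM, against 143 to 731 CPM (0 of 5 called by edgeR, 2 lower at an unadjusted p below 0.05, 1 called by DESeq2). Of the 7 genes of the sorting gate Cd48 and Flt3 were higher and Kit and Slamf1 lower, with sums of 429 to 959 CPM, against 616 to 856 CPM. Of 5 lineage antigens tested Ly6g was higher and Ptprc lower, with sums of 56.1 to 114 CPM, against 142 to 248 CPM. In bulk RNA, fewer cells of a type and less RNA per cell cannot be told apart, and the part of these cell types in the changes of the members was not tested. With the plasma cell gene Jchain as a covariate, chosen after seeing the data, 5 members were called lower for loss of the element (Oas1a, Gbp3, Gbp7, Irgm1 and Parp9) and none higher, with 3.88% of all genes called. Without the 3 libraries named earlier 5 were called lower (Oas1a, Gbp3, Gbp7, Iigp1 and Parp9), with 6.74% of all genes called.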

How the data were processed

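Per the labels' protocols, RNA (RNeasy micro kit) from sorted cells was read on the BGISEQ-500 in pairs of 100 bases. The submitters' processing notes name the tools FastQC, Salmon and DESeq2 and, as builds, mm10 and GRCm38. Versions and settings are not given in the sources used here. Per the file headers, the deposited files hold estimated counts per transcript (unscaled), the authors' TPM values and effective lengths. Of 116248 transcripts 115995 (99.8%) matched GENCODE M21. Gene sums of these counts were rounded, as 35.3% of the deposited values were not whole.

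Tests used edgeR 4.0.16 in R 4.3.3: filterByExpr (minimum count 10, minimum total 15), TMM factors, 1 mean per genotype over 12 libraries, quasi-likelihood tests of 8 contrasts, and Benjamini-Hochberg adjustment over 15012 genes with a threshold of 0.05. CPM are TMM-scaled counts per 1000000 reads, used between libraries. TPM, which one library's immunoglobulin reads can depress, was used only for levels between genes and shares of the members' sum. Promoter windows and 31-base words were searched with Python 3.11.15. The tests were tried on simulated data first.

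The members and lists were chosen with earlier results of these data known. Values per library are given for members called in at least 1 comparison, the 2 with the highest mean TPM in each of the OAS, IFIT, GBP and IRG and other groups, the 2 with the smallest p in each comparison, and Stat2, Isg15, Mx1 and Usp18; other members are given by counts, or named because they make up a count. Genes of the further lists are named where called or among the smallest p of the list. Alternatives were DESeq2 1.42.0 and its size factors, no filter, a filter of CPM over 1 in at least 3 libraries, an offset for transcript length, blocks by replicate number and by the series of mouse numbers, only the groups compared, and each library left out; 4 more were added after seeing the data. One item is not reported here.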

Additional observations from a re-analysis of the deposited data

Results flagged for a closer look

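Gaps between libraries were checked for 22 members in the groups of 6 libraries without and with the element and with and without the transgene, 88 groups in all. For independent, normally distributed values chance alone would set about 1 in 20 groups apart. The groups here pool genotypes and share libraries, so the number due to chance is not known. In all, 4 cases were found. Ifit2 was at 44.4 CPM in Pu.1-URE-/- library 3, against 15.4 to 26.2 CPM in the other libraries without the transgene, and Mx1 was at 1.54 CPM in the same library, against 0.0153 to 0.135 CPM. Stat2 was at 28.0 CPM in Mdmx-Tg library 1, against 5.71 to 13.4 CPM in the other transgenic libraries. Ifit3 was at 0.0558 CPM (3 reads) in Mdmx-Tg/Pu.1-URE-/- library 2 and at 0 in the other transgenic libraries, so that any read would have set it apart, and 3 reads are at the floor.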

How the results depend on the processing

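For loss of the element the 12 called members were 24 in DESeq2, 5 with Jchain as a covariate and 5 without the 3 libraries named, and 6 to 14 with each library left out in turn (6 without Pu.1-URE-/- library 1). In Pu.1-URE-/- against Wild-type the 4 were 13 in DESeq2, 8 with only the groups compared, 2 with no filter, 2 without the 3 libraries, 1 with the mouse series as a block, and 1 to 5 with a library left out. In Mdmx-Tg/Pu.1-URE-/- against Mdmx-Tg the 3 were 13 in DESeq2, 1 without the 3 libraries and 2 to 5 with a library left out. In Mdmx-Tg/Pu.1-URE-/- against Wild-type the 2 were 10 in DESeq2, 4 with only the groups compared, 1 with no filter, 1 with either block, 0 without the 3 libraries (edgeR) and 1 to 5 with a library left out. The counts of 0 were in DESeq2 2 for Mdmx-Tg against Wild-type, 1 for Mdmx-Tg/Pu.1-URE-/- against Pu.1-URE-/-, 9 for the transgene and 1 for the interaction. With a library left out they stayed at 0 in edgeR, except for the transgene at 0 to 4. The replicate block gave 11, 3, 2 and 1 calls for the 12, 4, 3 and 2; libraries of the same number did not deviate together (18 pairs, r from -0.153 to 0.086). For the named members, 332 alternative values that kept all libraries or dropped 3 gave 276 with the same call, 50 lost, 6 gained and 0 reversed, and 348 with a library left out gave 269, 78, 1 and 0. Shares of all genes called were given earlier only for DESeq2 and some of the other settings. Where no such share is given, a count does not show whether a shift is particular to the members. The cause of these shifts was not tested.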
